A study of Mus musculus with 8 samples.

Results

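The genes of 10 transcription factors of epidermal commitment and late keratinocyte differentiation were followed in dorsal skin of wild-type and TPH1 knockout mice: Trp63, Zfp750, Klf4, Grhl1, Grhl3, Ovol1, Prdm1, Cebpa, Cebpb and Gata3. The 10 genes were chosen by name from 55488 genes in each deposited table, and all 10 passed the filter on low counts that left 16908 genes for testing. The series holds bulk RNA-seq of whole dorsal skin from 3-month-old mice, with 4 wild-type libraries and 4 libraries from mice that lack Tph1, the gene of the tryptophan hydroxylase that limits how much serotonin peripheral tissues make. The labels give no strain, sex, litter, batch or account of how the knockout was made, and do not tie libraries to separate mice, so the spread behind every p-value may be technical.

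In the epidermis, basal cells divide on the basement membrane, leave it, and build first the keratin-rich spinous layer and then the granular layer, whose cells die into the cornified barrier. p63, the product of Trp63, sets up and maintains the keratinocyte lineage, and Zfp750 and Klf4 act downstream of it to switch on late genes. The Grainyhead-like factors, Ovol1, the PR domain factor Prdm1, the C/EBP factors and Gata3 each take part in leaving the cell cycle, building the envelope or making barrier lipids. Several of these genes also work outside the epidermis: Cebpa and Cebpb in fat cells and macrophages, Gata3 and Prdm1 in T cells, Gata3 in the inner root sheath of the hair follicle and Prdm1 in sebaceous glands.

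The promoters of Cebpb and Grhl3 are shown because these were the members with the smallest p-values. Both also hold a match to GGGNGTGG, the letters searched for Klf factors, the family of another member. N stands for any base, so this is a loose pattern. The RefSeq promoter table (GRCm38.p6) matched 7 of the 10 members in 8 windows, each from 250 bases before the transcription start to 50 bases after it, and not Trp63, Ovol1 or Zfp750. Printed are the 250 bases upstream of the start, 5′ to 3′ on the gene's strand, with the match to GGGNGTGG or its reverse complement in capitals.
Cebpb, plus strand, chr2:167688665-167688914: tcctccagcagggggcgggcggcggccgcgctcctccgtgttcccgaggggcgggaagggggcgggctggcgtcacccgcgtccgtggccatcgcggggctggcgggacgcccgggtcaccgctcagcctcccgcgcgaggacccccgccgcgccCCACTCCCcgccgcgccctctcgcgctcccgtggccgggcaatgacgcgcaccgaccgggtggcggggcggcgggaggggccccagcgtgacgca
Grhl3, minus strand, chr4:135573633-135573882: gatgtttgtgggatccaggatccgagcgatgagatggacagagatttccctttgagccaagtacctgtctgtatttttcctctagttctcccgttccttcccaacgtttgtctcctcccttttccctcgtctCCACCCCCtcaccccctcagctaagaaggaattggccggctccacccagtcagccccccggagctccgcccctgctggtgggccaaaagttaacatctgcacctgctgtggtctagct
The match begins 95 bases upstream of the start in Cebpb and 118 bases upstream in Grhl3. The same letters lay in the windows of Prdm1 and Gata3, so 4 of 8 member windows held them, against 17.6% of 32851 windows in the whole table. This share takes no account of base content. On both strands, AACCNGTT (Grainyhead) was in 0 member windows and 2.09% of all windows, TTGCNNAA (C/EBP) in 0 and 10.8%, and AGATAA, for the zinc finger family of Gata3, in 0 and 11.2%. TGANTCA (AP-1) was in 1 member window, that of Prdm1, and in 7.81% of all windows. No match in a member window overlapped another. These are matches of letters and not measured binding.

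The libraries held 20.5 M to 24.7 M expected counts. Tph1 had 18, 0, 27 and 11 counts in wild-type replicates 1 to 4 and 0 in each of the 4 knockout libraries, where 3 counts would be 0.125 to 0.139 CPM, the count scaled to library size after TMM adjustment. Wild-type replicate 2, without a Tph1 count, therefore cannot be told from the knockouts by this gene. All 8 libraries held Xist (292 to 685 CPM) and none held a count of the Y-linked genes Ddx3y, Uty or Kdm5d. The basal keratin gene Krt5, a marker of epidermis, had means of 7440 and 5917 CPM in wild type and knockout. Knockout replicate 3 stood apart by its hair follicle genes, with 2364 summed CPM over inner root sheath and shaft markers against 9.86 to 208 in the other 7 libraries.

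All 10 genes had a lower mean in knockout skin, from 42.1% of the wild-type mean for Grhl3 to 85.7% for Gata3, and 1 of them, Cebpb, passed the test (edgeR quasi-likelihood test, adjusted p under 0.05 over all 16908 genes). Over all genes tested, 0.532% were called lower and 46.9% had a log2 fold change below 0. At an unadjusted p under 0.05, 7 of the 10 were lower, against 9.37% of all genes. For 6 of the 10, Trp63, Klf4, Grhl3, Ovol1, Cebpa and Cebpb, every knockout library lay below every wild-type library, a pattern found in 5.65% of all genes. DESeq2's Wald test on the same counts called 6 members lower (Grhl3, Klf4, Ovol1, Cebpa, Cebpb and Zfp750), where it called 3.83% of all genes lower. In whole skin, fewer cells of a type and less RNA per cell cannot be told apart.

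**Figure D1:**
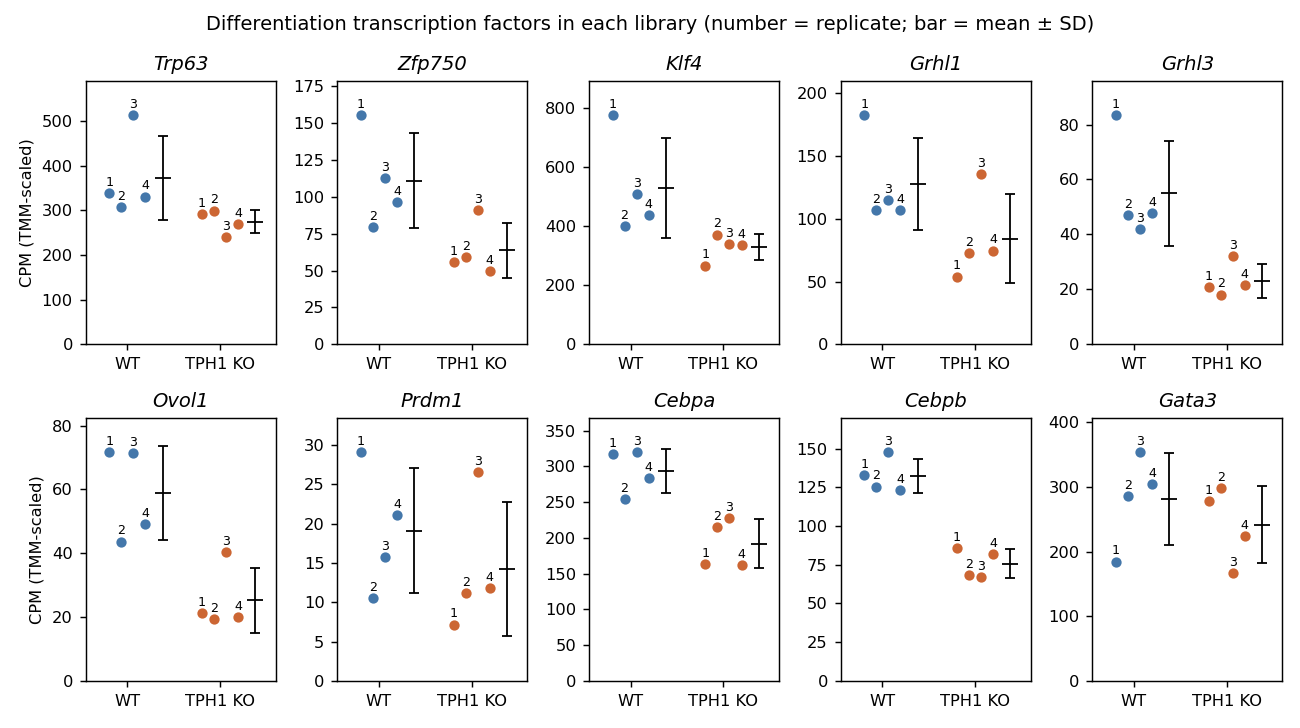
Level of each of the 10 transcription factor genes in CPM (TMM-scaled, linear axis from 0) in 4 WT and 4 TPH1 knockout libraries; numbers are replicates and bars are the mean ± SD. Cebpb shows the largest difference relative to its SE, with wild type at 123 to 148 and knockout at 67.1 to 85.7 CPM, while Gata3 and Prdm1 overlap broadly.

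Among the C/EBP factors, which promote the exit from the basal state, Cebpb was at 133, 125, 148 and 123 CPM in wild-type replicates 1 to 4 and at 85.7, 68.3, 67.1 and 81.7 CPM in knockout replicates 1 to 4. The groups were separated by a clear gap, and neither held a library far from the others. Cebpb fell from a mean of 132 ± 11.0 to 75.7 ± 9.39 CPM (SD, n = 4 each; -0.81 ± 0.13 SE on the log2 scale, edgeR adjusted p = 0.0325). This difference stayed between -0.88 and -0.75 when any 1 library was left out, but the adjusted p by edgeR was then 0.0429 to 0.142, and Cebpb was called in 1 of these 8 fits, the one without knockout replicate 3. Over all genes, 0.0296% to 0.881% were called lower in those 8 fits. Cebpb shares exon sequence with Tmem189 on the opposite strand, and the library kit does not mark strand. Tmem189 was at 41.2 ± 6.20 CPM in the 4 wild-type libraries and 38.3 ± 11.9 CPM (SD) in the 4 knockouts (edgeR adjusted p = 0.819).

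Cebpa, its paralogue, was at 317, 255, 320 and 283 CPM in wild type and at 163, 215, 227 and 162 CPM in knockout. Its groups did not overlap, with wild-type replicate 2 lowest in wild type and knockout replicate 3 highest in knockout. Cebpa did not pass, at -0.61 ± 0.16 (SE) on the log2 scale (edgeR adjusted p = 0.120). Cebpa lies on chromosome 7 (35119293 to 35121928, GRCm38), 11.5 Mb from Tph1, the only member on that chromosome.

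Both Grainyhead-like members had lower means in knockout, Grhl3 by the larger margin. Grhl3, which drives the formation of the envelope and barrier, was at 83.3, 47.0, 41.8 and 47.7 CPM in wild type and at 20.9, 18.0, 32.0 and 21.5 CPM in knockout. All knockout libraries were below all wild-type libraries, with wild-type replicate 1 far above the rest of its group. Grhl3 had the most negative log2 fold change of the 10 genes, -1.25 ± 0.25 (SE), and narrowly missed the threshold (edgeR adjusted p = 0.0646). Without wild-type replicate 1 it was -0.98 ± 0.19 (edgeR adjusted p = 0.0910), and without knockout replicate 3 it passed, at -1.45 ± 0.24 (edgeR adjusted p = 0.0373, in a fit that called 0.881% of all genes lower).

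Grhl1, a regulator of desmosomal cadherin genes, was at 183, 107, 115 and 107 CPM in wild type and at 53.9, 72.6, 136 and 74.7 CPM in knockout. Knockout replicate 3 lay inside the wild-type range, and the other 3 knockout libraries were below it. It did not pass with all libraries (-0.60 ± 0.29 SE on the log2 scale, edgeR adjusted p = 0.311) or without knockout replicate 3 (-0.93 ± 0.22, edgeR adjusted p = 0.0987), and was -0.38 without wild-type replicate 1. Their relative Grhl2, which is not a member, had means of 57.8 and 61.1 CPM in wild type and knockout (edgeR adjusted p = 0.826).

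Ovol1, a zinc finger repressor that takes progenitors out of the cell cycle, was at 71.7, 43.7, 71.4 and 49.1 CPM in wild type and at 21.3, 19.3, 40.4 and 20.1 CPM in knockout. The groups came close but did not overlap, because knockout replicate 3 was about level with the lowest wild-type library. Ovol1 did not pass with all libraries in the fit (-1.22 ± 0.27 SE on the log2 scale, edgeR adjusted p = 0.0824). Without knockout replicate 3 it did, at -1.55 ± 0.20 (edgeR adjusted p = 0.0162). A pseudogene on the opposite strand, Gm31166, overlaps its exons and measured 7.95 ± 4.25 CPM in the 4 wild-type libraries and 11.7 ± 6.17 CPM (SD) in the 4 knockouts.

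In the axis from p63 through Zfp750 to Klf4, all 3 genes had lower means in knockout and none passed by edgeR. Trp63 was at 338, 308, 512 and 330 CPM in wild type and at 291, 299, 240 and 269 CPM in knockout. The groups did not overlap, but the highest knockout and lowest wild-type libraries were close, and wild-type replicate 3 stood well above its group. Its log2 fold change was -0.44 ± 0.19 (SE, edgeR adjusted p = 0.269) and became -0.24 without wild-type replicate 3. Trp63 makes long and short amino-terminal isoforms from separate promoters, which values per gene do not separate.

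Zfp750 was at 155, 79.5, 113 and 96.5 CPM in wild type and at 55.6, 59.3, 91.2 and 49.5 CPM in knockout. Only knockout replicate 3 reached into the wild-type range (-0.80 ± 0.24 SE on the log2 scale, edgeR adjusted p = 0.158). Klf4, which is needed for the permeability barrier, was at 776, 401, 510 and 438 CPM in wild type and at 266, 372, 340 and 336 CPM in knockout. The knockout libraries were all lower, with a narrow gap to wild-type replicate 2 (-0.69 ± 0.23 SE, edgeR adjusted p = 0.183). Leaving out wild-type replicate 1, the highest, gave -0.45.

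Prdm1 and Gata3 did not separate the genotypes. Prdm1, which acts in the last step from granular cell to cornified cell, was at 29.1, 10.5, 15.8 and 21.1 CPM in wild type and at 7.17, 11.2, 26.6 and 11.8 CPM in knockout. The spread was wide in both groups, 2.77-fold from lowest to highest in wild type and 3.71-fold in knockout, on 155 to 770 counts a library (-0.43 ± 0.41 SE on the log2 scale, edgeR adjusted p = 0.605). It was -0.93 without knockout replicate 3 and -0.16 without wild-type replicate 1, and was called in neither. Gata3, a factor of epidermal lipid synthesis and hair follicle lineages, was at 184, 286, 354 and 304 CPM in wild type and at 278, 298, 167 and 224 CPM in knockout. Its lowest libraries were wild-type replicate 1 and knockout replicate 3 (-0.22 ± 0.24 SE, edgeR adjusted p = 0.649). With 1 library left out it ran from -0.38 without wild-type replicate 1 to -0.081 without knockout replicate 3.

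**Figure D2:**
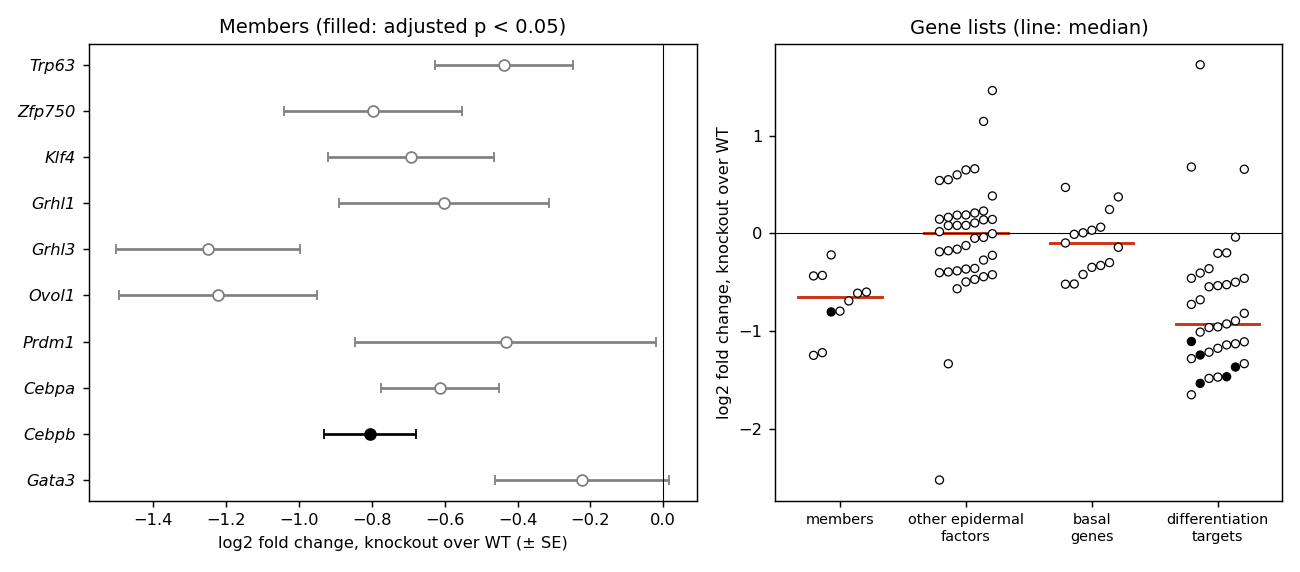
Left, log2 fold change (knockout over WT) ± SE of the 10 genes by edgeR, filled where the adjusted p was under 0.05. Right, log2 fold changes of single genes in 4 lists with the list median as a line: the members lie at a median of -0.65 and the other epidermal factors around 0.0052.

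Per length, in the deposited TPM, which RSEM scales to gene length and depth, the factors spanned a wide range of levels. In wild type, Klf4 led with 248 ± 104 TPM, followed by Cebpa at 165 ± 26.8, Cebpb at 127 ± 19.2, Gata3 at 118 ± 26.2 and Trp63 at 112 ± 30.5 (SD, n = 4). Klf4 exceeded Cebpa in each of the 4 wild-type libraries, while the ranges of Cebpb, Gata3 and Trp63 overlapped and their order differed between libraries. Next came Grhl1 at 55.1 ± 20.2 and Zfp750 at 47.4 ± 18.3 TPM. The highest wild-type library of Grhl1, at 84.85 TPM, was just below the lowest of Trp63, at 85.36 TPM. Ovol1 and Grhl3 did not differ beyond their spread, at 27.8 ± 8.86 and 27.5 ± 12.3 TPM, and Prdm1 was lowest at 4.96 ± 2.50 TPM, below every library of Grhl3. In knockout the order of the means was the same but for Cebpb, which stood at 69.6 ± 5.68 TPM, after Gata3 at 99.6 ± 18.3 and Trp63 at 78.9 ± 7.38. Cebpa, at 104 ± 31.6, overlapped Gata3 there and was above it in 1 of the 4 knockout libraries.

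Libraries of the same genotype differed along a shared pattern. Grhl1, Grhl3, Ovol1, Prdm1 and Zfp750 were each highest in wild-type replicate 1 among wild types and in knockout replicate 3 among knockouts. For Ovol1 the wild-type lead was slight, at 71.7 CPM in replicate 1 and 71.4 CPM in replicate 3. In those libraries Gata3 was the lowest of its genotype. The summed level of 37 differentiation target genes was also highest there, at 22575 CPM in wild-type replicate 1 and 12868 CPM in knockout replicate 3, and that of 15 basal keratinocyte genes was lowest, at 16753 and 12510 CPM. Summed fibroblast markers (3554 and 1810 CPM) and macrophage markers (477 and 434 CPM) were the highest of their genotypes in the same libraries. So were sebocyte (1778 and 3259 CPM), endothelial (243 and 296 CPM) and melanocyte markers (32.8 and 83.3 CPM). Adipocyte, T cell, hair follicle, skeletal muscle and red blood cell markers were not highest in both. Cebpb did not follow the pattern, at 0.0050 above its wild-type mean in wild-type replicate 1 and -0.17 from its knockout mean in knockout replicate 3 on the log2 scale. Leaving out both libraries was a choice made after the data were seen. It removes the highest value of Grhl3 and of Ovol1 in each genotype. This narrows the spread of Grhl3 in both genotypes and that of Ovol1 in knockout, so the p-values of that fit are descriptive. Without both libraries, Grhl3 was at -1.17 ± 0.13 and Ovol1 at -1.44 ± 0.19 (SE), and both passed (edgeR adjusted p = 0.0149 and 0.0292). Cebpb, at -0.75 ± 0.14, did not (edgeR adjusted p = 0.0772). That fit called 0.343% of all genes lower.

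**Figure D3:**
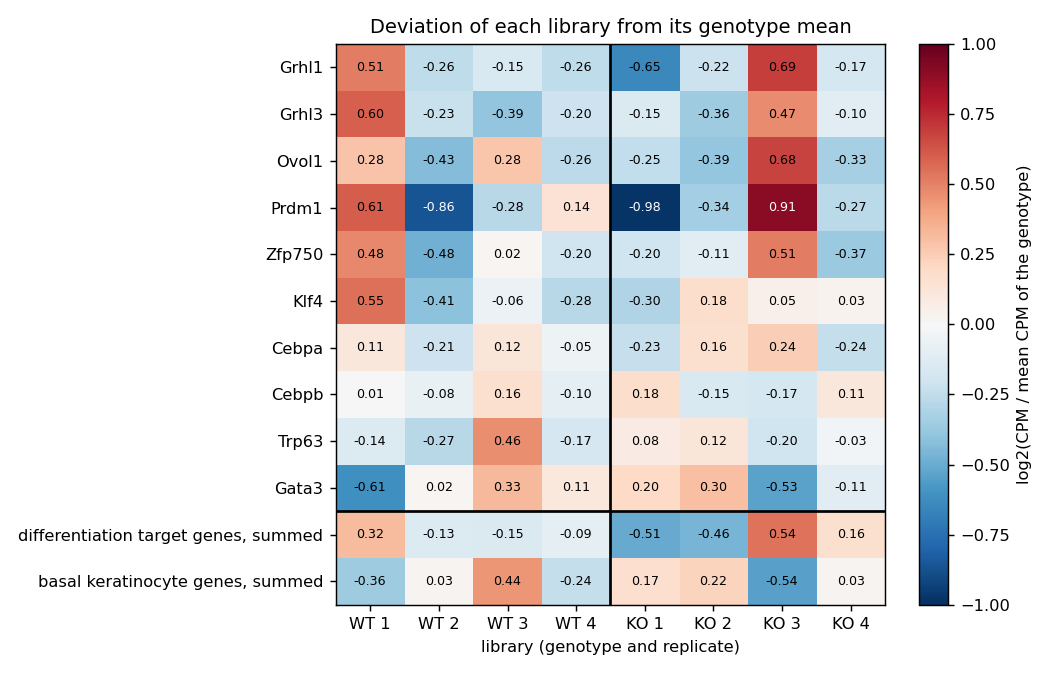
Deviation of each library from the mean of its genotype, as log2 of CPM over that mean, for the 10 genes and for the summed CPM of 37 differentiation target genes and 15 basal keratinocyte genes. The top 5 rows are red in WT 1 and KO 3, where Gata3 and the basal genes are blue.

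Within a library, the ratio of each factor to Trp63 is free of library scaling. The log2 ratio of Ovol1 to Trp63 averaged -2.66 ± 0.29 in the 4 wild-type and -3.51 ± 0.64 in the 4 knockout libraries (SD), and that of Grhl3 was -2.78 ± 0.65 and -3.60 ± 0.49. For Cebpb it was -1.46 ± 0.23 and -1.86 ± 0.18. The genotypes overlapped in all 9 ratios. For Cebpb the overlap came from wild-type replicate 3, at -1.79, the library with the highest Trp63. Trp63 was itself lower in every knockout than in any wild-type library, so a ratio to it takes out a shared fall. Scaling libraries to the summed basal keratinocyte genes, which overlapped between genotypes (16753 to 29131 CPM in wild type and 12510 to 21285 in knockout), left 9 of 10 log2 fold changes negative. None of the members was then called by edgeR (2 at an unadjusted p under 0.05), with Grhl3 at -1.0 ± 0.43, Ovol1 at -0.87 ± 0.42, Cebpb at -0.57 ± 0.26 (SE) and Gata3 at 0.0014. This scaling raised the median of all genes by 0.24 on the log2 scale, and 0.0177% of genes were called lower under it.

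Other transcription factors of the epidermis were divided in direction. Of 42 such genes, 0 were called by edgeR, 8 had an unadjusted p under 0.05 in either direction, against 17.6% of all genes, and DESeq2 called 5, of which 4 were lower. Their log2 fold changes were negative for 21 and positive for 21, with a median of 0.0052 against -0.65 for the 10 members and 0.029 for all genes tested. The smallest p-values belonged to Myc, a driver of growth, Cebpd, a further C/EBP factor, Ahr, the aryl hydrocarbon receptor, and Hopx, a homeodomain protein of suprabasal cells. Myc was at 147 and 58.3 CPM in wild type and knockout (-1.34 ± 0.32 SE), Cebpd at 78.5 and 52.9 CPM (-0.57 ± 0.15) and Hopx at 135 and 95.4 CPM (-0.50 ± 0.15), while Ahr was higher in knockout, at 33.3 and 52.6 CPM (0.66 ± 0.18). None of these 4 passed (edgeR adjusted p = 0.0969 to 0.152). The difference between the lists was not tested.

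Genes on which the members are known to act were lower in part. Of 37 differentiation target genes, 5 fell by edgeR, with a median log2 fold change of -0.93 over all 37 and 34 below 0. At an unadjusted p under 0.05, 24 were lower, and DESeq2 called 20 lower. Over all genes, 0.532% were called lower by edgeR, 46.9% were below 0, 9.37% were lower at an unadjusted p under 0.05 and DESeq2 called 3.83% lower. The 5 that fell by edgeR were the calmodulin-like gene Calm4, the keratin gene Krt78, the protease gene Klk8, the secreted peptide gene Krtdap and the loricrin gene Lor. Their log2 fold changes were from -1.54 to -1.11. The next by p-value, the lipoxygenase gene Alox12b, Sbsn, Cnfn and the protease gene Klk7, were at -1.65 to -1.14 and were not called (edgeR adjusted p = 0.0538 to 0.110). Leaving out 1 library gave 0 to 10 calls, with 0 without wild-type replicate 1 or 4 or without knockout replicate 1, 2 or 4, 1 without wild-type replicate 3 and 10 without knockout replicate 3. Tgm1, an envelope transglutaminase gene and a known Grhl3 target, was at 74.0 and 26.6 CPM (-1.47 ± 0.37 SE, edgeR adjusted p = 0.112). Dsg1a, a desmoglein gene of the kind that Grhl1 regulates, was at 357 and 310 CPM (-0.21 ± 0.33 SE, edgeR adjusted p = 0.773). Tgm1 and Dsg1a were chosen after their values were seen. Of 15 basal keratinocyte genes, 0 were called by edgeR, 3 had an unadjusted p under 0.05 (1 higher and 2 lower in knockout) and DESeq2 called 1 higher and 1 lower, with a median of -0.10. The smallest p was that of Lama3, a laminin chain gene of the basement membrane, which was higher in every knockout than in any wild-type library, at means of 58.0 and 80.3 CPM (0.47 ± 0.12 SE, edgeR adjusted p = 0.104). The integrin genes Itga3 and Itga6 were at -0.52 ± 0.20 and -0.30 ± 0.17 (SE), and Perp, a desmosomal target of p63, at -0.42 ± 0.19 (edgeR adjusted p = 0.227 to 0.378 for the 3 genes).

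Immediate early, AP-1 and heat shock genes were mostly lower in knockout by sign. All 20 immediate early genes were lower and 3 fell by edgeR (Nr4a1, Csrnp1 and Arc), while 18 had an unadjusted p under 0.05 and DESeq2 called 14 lower. Of 10 heat shock genes, 9 were lower by sign, with 0 called by edgeR, 6 at an unadjusted p under 0.05 and 3 called lower by DESeq2. The 10 AP-1 factor genes, of which 5 are among those 20, were all lower by sign, with 0 called by edgeR, 8 at an unadjusted p under 0.05 and 4 called by DESeq2. Over all genes, 46.9% were lower by sign and edgeR called 0.532% lower. At an unadjusted p under 0.05, 9.37% of all genes were lower, and DESeq2 called 3.83% lower. Jund, an AP-1 gene active in skin, was at 754 ± 348 and 250 ± 76.9 CPM (SD, n = 4 each, edgeR adjusted p = 0.0744). Fosl1 had the smallest p of the AP-1 genes (edgeR adjusted p = 0.0675). Its level was 13.4 ± 18.1 CPM in wild type and 0.267 ± 0.222 CPM in knockout (SD), the latter near the level of 3 counts. The summed level of the immediate early genes ran from 2410 to 17233 CPM in wild type and from 1580 to 4736 in knockout. That of the heat shock genes did not overlap, at 3081 to 3719 CPM in wild type and 2326 to 2630 in knockout. Klf4 and Cebpb are themselves known as rapidly induced genes.

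Wild-type replicate 2 had a summed immediate early level within the knockout range, at 2410 CPM. The sum does not hold for each gene of the list. The called genes Nr4a1, Csrnp1 and Arc, at 311, 52.5 and 4.75 CPM, were above the highest knockout library, at 158, 28.9 and 2.08 CPM. Others lay within the knockout range. In wild-type replicate 2, Cebpb, at 125 CPM, was 1.46-fold above the highest knockout library and Grhl3, at 47.0 CPM, 1.47-fold above. For Ovol1, Klf4, Trp63 and Cebpa the ratio was 1.08, 1.08, 1.03 and 1.12. For these 6 genes a ratio above 1 follows from groups that do not overlap. For Gata3, Zfp750, Grhl1 and Prdm1 the same library was below the highest knockout, at ratios of 0.959, 0.872, 0.788 and 0.396. Its heat shock level, 3176 CPM, was above the knockout range. With the mean level of both stress lists (immediate early and heat shock) added to the model, Cebpb was at -0.71 ± 0.22, Grhl3 at -0.99 ± 0.46 and Ovol1 at -0.68 ± 0.47 (SE), while Klf4 was at -0.040, Zfp750 at -0.14 and Trp63 at 0.032. No member was called under this covariate by edgeR, 1 had an unadjusted p under 0.05, and 0.00591% of all genes were called lower. The covariate itself moved with genotype. In mean log2(CPM+1), immediate early genes were at 7.55 in wild type and 5.85 in knockout, and heat shock genes at 7.62 and 7.17. The SE of Ovol1 rose from 0.27 without the covariate to 0.47 with it. This fit therefore cannot separate the level of the stress lists from genotype, also where a log2 fold change came near 0.

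**Figure D4:**
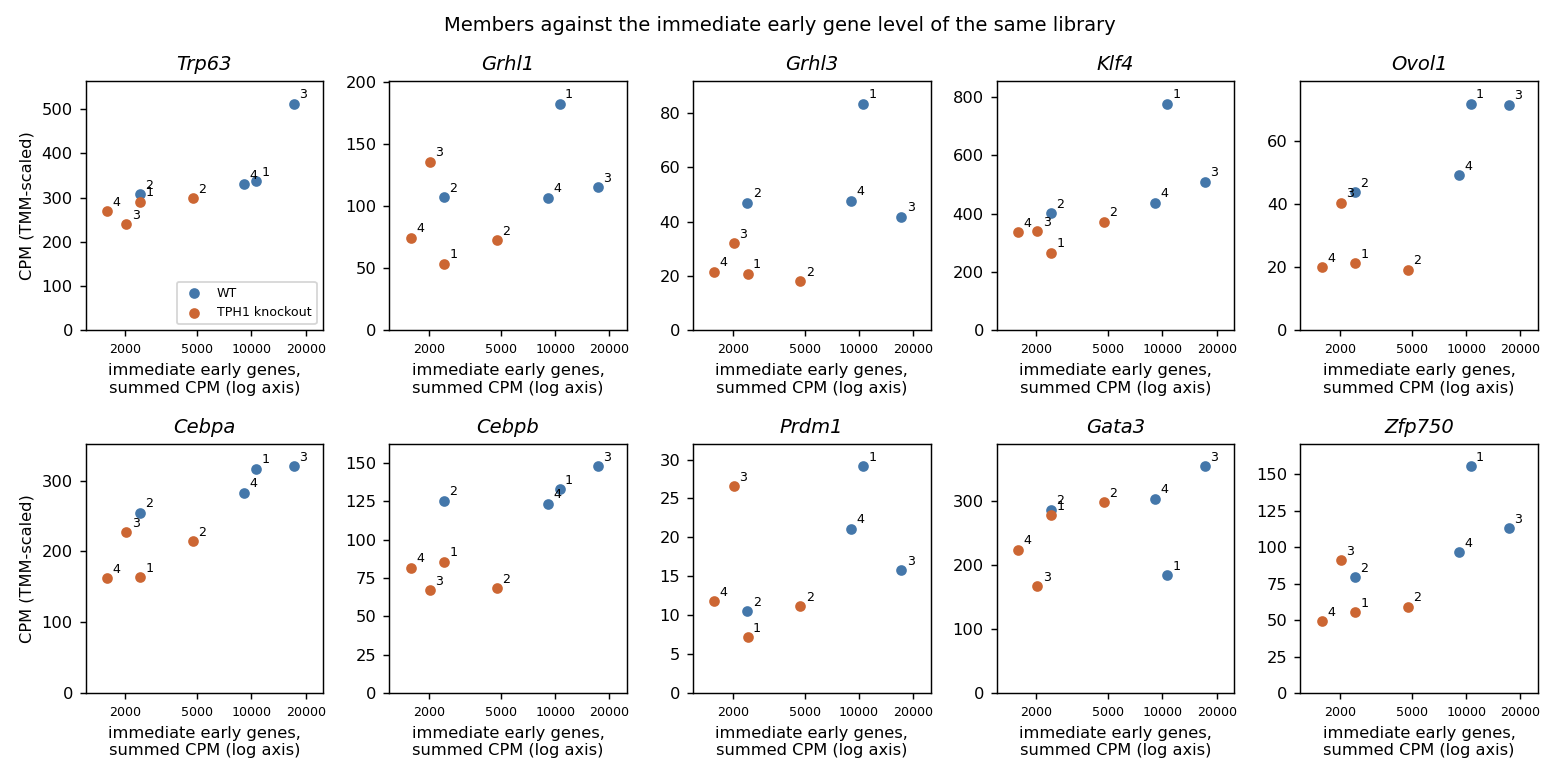
CPM of the 10 genes (linear axes from 0) against the summed CPM of 20 immediate early genes in the same library (log axis), with replicate numbers. WT replicate 2 sits at 2410 on the horizontal axis, among the knockouts; it is below the highest knockout library for Zfp750, Grhl1, Prdm1 and Gata3 and above it for the other genes, whose genotypes do not overlap.

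Markers of the other cell types that express some members overlapped between the genotypes. Summed adipocyte markers (8 genes, 0 called, 7 lower by sign) ran from 3125 to 4304 CPM in wild type and from 1397 to 3967 in knockout. Macrophage markers (9 genes, 0 called, 8 lower by sign) ran from 283 to 477 and from 186 to 434 CPM, and T cell markers (8 genes, 7 tested, 0 called, 6 lower by sign) from 40.4 to 54.7 and from 21.9 to 46.1 CPM. At an unadjusted p under 0.05 by edgeR there were 1, 5 and 1 genes in these lists, all lower, and DESeq2 called 0, 0 and 1 (the T cell list). Over all genes, 46.9% were lower by sign, 9.37% were lower at an unadjusted p under 0.05 and DESeq2 called 3.83% lower. Sebocyte markers (9 genes, 0 called by edgeR, 1 at an unadjusted p under 0.05 and 0 by DESeq2) ran from 1147 to 1778 and from 616 to 3259 CPM, with knockout replicate 3 the highest. No marker in these 4 lists was at 0 in all libraries. By sign, 4 of 6 fibroblast and 2 of 6 endothelial markers were lower, and all 4 melanocyte and 5 red blood cell markers tested were higher. None of these was called by edgeR, and 1 red blood cell marker had an unadjusted p under 0.05. Skeletal muscle markers (8 genes, 0 called, 8 higher by sign, 0 at an unadjusted p under 0.05) ranged from 13623 to 91400 CPM in wild type and from 54799 to 99470 in knockout. With the adipocyte or the muscle level as a covariate, all 10 log2 fold changes stayed negative and none was called, with Cebpb at -0.91 ± 0.15 (edgeR adjusted p = 0.105) and -0.78 ± 0.14 (SE, edgeR adjusted p = 0.0668). Of all genes, 0.0177% and 0.13% were called lower in these fits. Both covariates differed in mean between the genotypes. In mean log2(CPM+1), adipocyte markers were at 7.96 in wild type and 7.34 in knockout, and muscle markers at 12.1 and 12.8. These fits therefore cannot separate cell composition from genotype. The part of cell composition in the lower levels was not tested.

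Mitochondrially encoded genes lay in the opposite direction to the members. All 13 were higher in knockout by sign, with a median log2 fold change of 0.81, 0 called by edgeR, 6 at an unadjusted p under 0.05 and 3 called higher by DESeq2. Of all 16908 genes tested, 8982 were higher by sign, edgeR called 20 higher and 17.6% had an unadjusted p under 0.05 in either direction. DESeq2 called 994 of all genes in either direction, of which 648 were lower. They took 4.19% to 8.40% of the counts in wild type and 7.50% to 10.7% in knockout, so the genotypes overlapped. Their part in the lower levels was not tested.

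**Figure D5:**
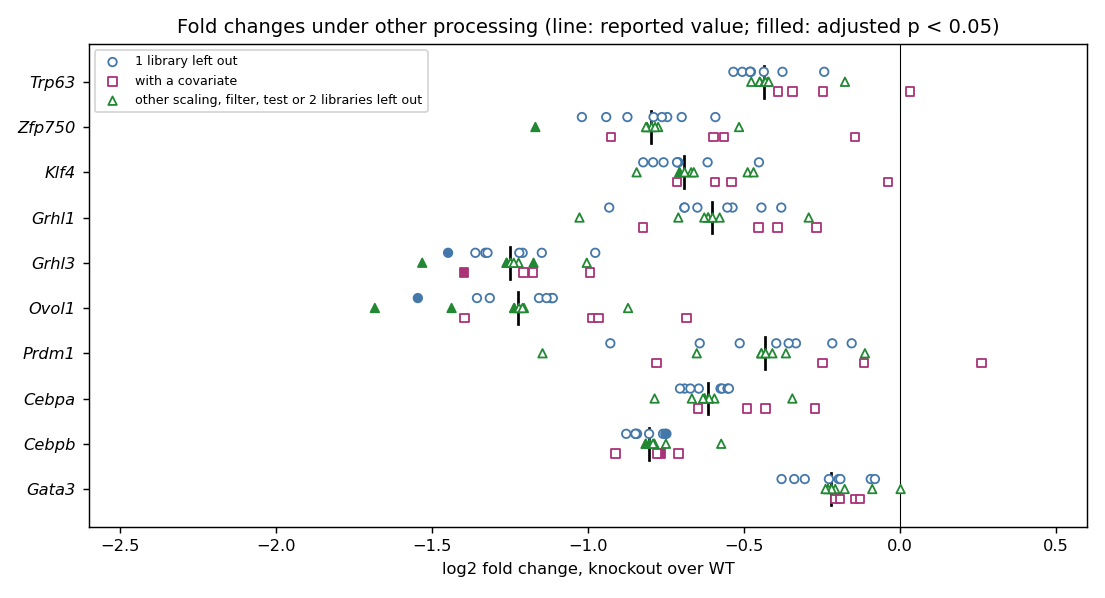
Log2 fold change (knockout over WT) of the 10 genes as reported (black line) and under 20 alternatives, filled where the adjusted p was under 0.05. Cebpb stays between -0.91 and -0.57 and Grhl3 between -1.53 and -0.98, whereas Trp63, Prdm1 and Gata3 each cross 0 under 1 alternative.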

How the data were processed

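Total RNA of dorsal skin was sequenced from NEBNext Ultra libraries, which do not mark strand, per the labels' protocols. Build GRCm38, RSEM 1.31, STAR 2.7.6a, DESeq and DESeq2 appear in the submitters' processing notes without roles, and the labels name Ensembl release 101. The deposited expected counts are RSEM estimates, not normalized, and in each library 10.7% to 11.5% of the 55488 values are not exactly whole. The deposited TPM and FPKM values are RSEM's, scaled for length and depth according to the headers, and served to order genes by level. The authors' matrix of 17382 genes holds a normalized signal, called DESeq2-normalized per the labels, and gave symbols for the members.

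After rounding, expected counts entered edgeR 4.0.16 under R 4.3.3 (filterByExpr with minimum count 10 and minimum total 15, TMM, robust quasi-likelihood F test, genotype as the only term, Benjamini-Hochberg adjustment over all genes tested). CPM are counts over the TMM-scaled library size. SE is the size of the log2 fold change over the square root of F. Replicates are numbered in record order and pair no libraries. Positions are from GENCODE M21 (GRCm38). The members, lists and alternatives (other scalings, DESeq2 1.42.0, no filter, gene length, covariates, libraries left out) were chosen with earlier results of these data known. The rule for names was the members, Tph1, every called gene of a list and the 4 others of smallest p (3 for AP-1 and immediate early genes). Marker, heat shock and mitochondrial lists are given by counts. Of the AP-1 and immediate early genes not called, Fosl1, Jund, Nr4a2, Nr4a3, Ier3 and Btg2 alone are given. Grhl2, Krt5, Tgm1, Dsg1a, Nr4a2, Ier3, overlapping genes and sex-linked genes are outside this rule.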

Additional observations from a re-analysis of the deposited data

Results flagged for a closer look

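In 20 groups of 4 libraries (10 genes in each genotype), 4 held a library far from the other 3, by Dixon's test at its 95% critical value. Chance flags about 1 in 20 such groups, and the 10 genes share their libraries. In wild type these were Trp63 in replicate 3, at 512 CPM with the next library at 338, Grhl1 in replicate 1, at 183 CPM with the next at 115, and Grhl3 in replicate 1, at 83.3 CPM with the next at 47.7. In knockout it was Ovol1 in replicate 3, at 40.4 CPM with the next at 21.3.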

How the results depend on the processing

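With any 1 library left out, all 10 log2 fold changes stayed negative, the number of members called was 0 to 3 (3 without knockout replicate 3), that of differentiation target genes 0 to 10 and that of other epidermal factors 0. The members and target genes called were 6 and 20 by DESeq2 (other factors 5), 0 and 0 with libraries scaled to basal keratinocyte genes, 0 and 0 with the immediate early and heat shock covariate, 2 and 11 with the basal covariate, 0 and 0 with the adipocyte covariate, and 0 and 2 with the muscle covariate. They were 3 and 10 without wild-type replicate 2 and knockout replicate 3, and 2 and 2 without wild-type replicate 1 and knockout replicate 3, a choice made after seeing the data. Signs turned for Trp63 (0.032) and Prdm1 (0.26) with the immediate early and heat shock covariate and for Gata3 (0.0014) with basal scaling, and the causes were not tested. RLE or upper quartile scaling, no filter and the gene length offset kept 1 member and 5 or 6 target genes called. The share of all genes called lower was 0.479%, 0.373%, 0.423% and 0.355% in these 4 fits, 0.722% with the basal covariate and 0.875% without wild-type replicate 2 and knockout replicate 3. With 1 library left out it was 0.0296% to 0.881%. Order by FPKM matched that by TPM for 10 of 10 members. No paired analysis was possible because the replicate numbers follow record order and pair no libraries.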
